A study of Mus musculus with 19 samples.

Results

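The forkhead (Fox), Sox, Gata and T-box (Tbx) genes encode DNA-binding transcription factors, and 69 of them were followed in mouse MII oocytes and 2cell embryos of CPEB3+/- and CPEB3-/- females. The members were every protein-coding gene of the deposited expression table whose symbol is Fox, Sox, Gata or Tbx with the letter and number of a named family member, with 1 Sox gene left out by the rule. They comprised 36 Fox, 16 Sox, 5 Gata and 12 Tbx genes of 25891 genes listed, of which 17318 are protein coding. RNA was sequenced in 19 libraries, namely 5 CPEB3+/- (labelled Het) and 5 CPEB3-/- (labelled KO) libraries of MII oocytes and 5 Het and 4 KO libraries of 2cell embryos. Values are FPKM, fragment counts divided by exon length and library depth, so that genes of different length can be compared within a library.

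Females were on a BL6 background and 6 to 10 weeks old. In the KO females the LoxP-flanked Cpeb3 gene was removed by Cre driven from the Zp3 promoter, which is active in growing oocytes, so the loss began in the female germ line and not in the embryo. All females of both genotypes were superovulated with 5 IU of PMSG followed by 5 IU of hCG 48 h later. The 2cell embryos came from matings with wild-type males, were cultured from the zygote stage and were collected 37 h after hCG, so each embryo also had a paternal genome with intact Cpeb3. Each library was made from a small pool of cells, and nothing states which pools came from separate females, so the p-values measure the spread between these libraries, which may be in part technical. In pooled cells, fewer cells carrying a transcript and less of it per cell cannot be told apart.

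Forkhead proteins bind DNA through a winged-helix domain and include factors that open closed chromatin in the early germ layers, effectors of insulin signalling (Foxo) and a driver of the cell cycle (Foxm1). Sox proteins bend DNA through an HMG box, Gata proteins bind through zinc fingers and are known for blood, trophoblast and endoderm, and T-box proteins pattern the mesoderm, limbs and heart. Most of these genes are silent in oocytes and in the first cleavage stage and are known from later embryos. At the 2cell stage the mouse embryo replaces oocyte mRNA by transcripts of its own genome. CPEB3, an RNA-binding protein of the cytoplasmic polyadenylation element binding family, is known for control of the poly(A) tails and translation of bound mRNAs.

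Sequence next to the gene start was examined because members that moved together had GC-rich transcripts. A RefSeq promoter (GRCm38.p6) was at hand for 46 of the 69 members. Their 250 bases before the start held a median of 17 CpG dinucleotides, with a range of 1 to 48, beside 15 for the genes tested in 2cell embryos and 6 for all 27025 promoters of the table. The GC box GGGCGG stood on either strand in 67.4% of the members, in 55.8% of the tested genes and in 32.9% of all promoters, and TATAAA in 8.70%, 7.51% and 13%. The members higher in KO 2cell embryos and those tested and not called had the same median of 19.5 CpG (8 and 18 with a promoter), with the GC box in 75% and 88.9%, so these counts did not separate them. Shown here, as examples and not as a contrast, are 2 members that were higher in KO 2cell embryos, Foxc1 (29 CpG) and Foxd3 (21 CpG), and the 1 that was lower, Sox15 (5 CpG), all on the plus strand at chr13:31806396-31806645, chr4:99656049-99656298 and chr11:69654787-69655036, with CpG in capitals. The last bases of the Foxc1 window lie inside the first exon of the longer GENCODE model. The Sox15 window ends at chr11:69655036, upstream of the start of the GENCODE gene at chr11:69655314, so it does not adjoin that start.
Foxc1: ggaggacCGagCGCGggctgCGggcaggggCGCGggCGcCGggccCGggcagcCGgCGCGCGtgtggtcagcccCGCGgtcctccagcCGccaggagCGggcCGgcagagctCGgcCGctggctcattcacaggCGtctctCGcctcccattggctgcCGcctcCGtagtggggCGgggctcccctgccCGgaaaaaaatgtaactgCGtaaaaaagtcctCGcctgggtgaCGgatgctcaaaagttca
Foxd3: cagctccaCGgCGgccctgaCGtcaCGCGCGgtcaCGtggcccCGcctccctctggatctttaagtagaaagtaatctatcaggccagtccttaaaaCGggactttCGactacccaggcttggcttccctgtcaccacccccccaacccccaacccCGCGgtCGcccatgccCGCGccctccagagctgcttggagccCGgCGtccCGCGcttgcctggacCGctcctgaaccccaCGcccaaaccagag
Sox15: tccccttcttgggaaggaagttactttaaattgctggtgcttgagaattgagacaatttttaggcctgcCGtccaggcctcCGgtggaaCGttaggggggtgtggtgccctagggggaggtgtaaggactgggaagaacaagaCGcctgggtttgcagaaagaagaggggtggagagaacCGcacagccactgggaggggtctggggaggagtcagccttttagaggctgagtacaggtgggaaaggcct

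The other end of the transcript was read for TTTTAT, the letters of the cytoplasmic polyadenylation element after which the CPEB proteins are named, and only on the transcript's own strand. They stood in the last 100 bases of the longest transcript of 12 members (17.4%), beside 13.3% of protein-coding genes and 11.2% of the genes tested in 2cell embryos. The poly(A) signal letters AATAAA stood there in 65.2% of the members and 61.3% of protein-coding genes. Of the 15 members higher in KO 2cell embryos 0 held TTTTAT in this window, and of the 21 tested and not called 6 did (28.6%). The windows of 3 members are given as examples, 30 bases each on GRCm38 and with TTTTAT in capitals. They are Foxn2 on the plus strand (chr17:88490504-88490533), Foxk2 on the plus strand (chr11:121309867-121309896) and Sox3 on the minus strand (chrX:60891366-60891395). The element starts 13, 15 and 14 bases from the transcript end in these genes, and closer in Sox6 (8) and Foxd1 (11). A match of letters is a description of the window and not a site shown to be bound.
Foxn2: ttgcagaataaatgtcgTTTTATaacactt
Foxk2: aattcaataaaatatTTTTATtaattttaa
Sox3: gtgagagatcaataaaTTTTATaaccaata

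Depth, estimated from the steps of low values, was 17.1 to 23.5 M fragments per library with a median of 19.6 M, and a value near 0.1 FPKM stood for only a few fragments of a short gene. Cpeb3 over the whole gene had a mean of 0.0755 FPKM in Het MII, 0.162 in KO MII, 0.0303 in Het 2cell and 0.0554 in KO 2cell libraries, so its FPKM was not lower in the libraries labelled KO. In MII oocytes its lowest KO library (0.131 FPKM) stood above the highest Het library (0.101 FPKM), and in 2cell embryos the ranges overlapped. Every direction given here rests on the labels. The value covers the whole gene and not the deleted exons alone, and so does not show the deletion. The 10 oocyte markers summed to 1764 to 1845 FPKM in Het and 1039 to 1422 FPKM in KO MII libraries, 9 markers of 2cell embryos to 38.0 to 45.1 and 46.5 to 62.1 FPKM, and 4 blood markers to 0.858 to 1.44 and 1.65 to 2.71 FPKM, so these 3 lists separated the genotypes in MII oocytes. The blood sum in MII oocytes was mostly Cd68, a macrophage marker, which was higher in KO (0.943 FPKM in Het and 2.05 FPKM in KO, log2 fold change 0.93, adjusted p = 0.00414 by limma). Hba-a1 had MII means of 0.153 FPKM in Het and 0.108 FPKM in KO, and Hba-a2 0.0118 and 0.0466 FPKM. Lyz2 was listed at 0 in every MII library. Of the 5 2cell markers tested in MII oocytes 3 (Zscan4c, Zscan4d and Zscan4f) were higher in KO and 0 lower. In 2cell embryos the 2cell markers summed to 456.3 to 841 FPKM in Het and 428 to 609 FPKM in KO libraries, which overlapped, and 3 of the 9 were lower and 0 higher in KO, with a median log2 fold change of -0.54. These were Spic (21.9 FPKM in Het and 2.70 FPKM in KO, log2 fold change -3.08, adjusted p = 0.00107 by limma), Eif1a (-1.44) and Zscan4d (-1.03, adjusted p = 0.0396 by limma), and 5 of the 9 were lower in the interaction, the KO to Het difference in 2cell embryos less that in MII oocytes. Of 12 cumulus and granulosa markers in the table, summing to 0.230 to 0.609 FPKM over all libraries, at least 10 had a group mean under 0.1 FPKM. In 2cell libraries blood markers summed to 56.3 to 148 FPKM in Het and 47.8 to 97.0 FPKM in KO, mostly α-globin transcripts, and sperm markers to 1.31 FPKM at most. The part of these markers in the members' differences was not tested. No pair of libraries was identical.

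Most members were close to silent in MII oocytes, and fewer were in 2cell embryos. In Het MII oocytes 53 of 69 had a mean under 0.1 FPKM and 19 were at 0 in every library. In KO MII oocytes these counts were 50 and 18. In Het 2cell embryos 36 were under 0.1 FPKM and 5 at 0 throughout, and in KO 2cell embryos 27 and 0. Means of at least 1 FPKM were reached by 8, 7, 8 and 16 members in Het MII, KO MII, Het 2cell and KO 2cell. The median over the members was 0.00427, 0.00927, 0.0865 and 0.177 FPKM in the same order, beside 0.0604, 0.0716, 0.124 and 0.147 FPKM over all protein-coding genes. The median member thus stood below the median protein-coding gene in 3 groups and above it in KO 2cell embryos, with no test made of that order.

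**Figure D1:**
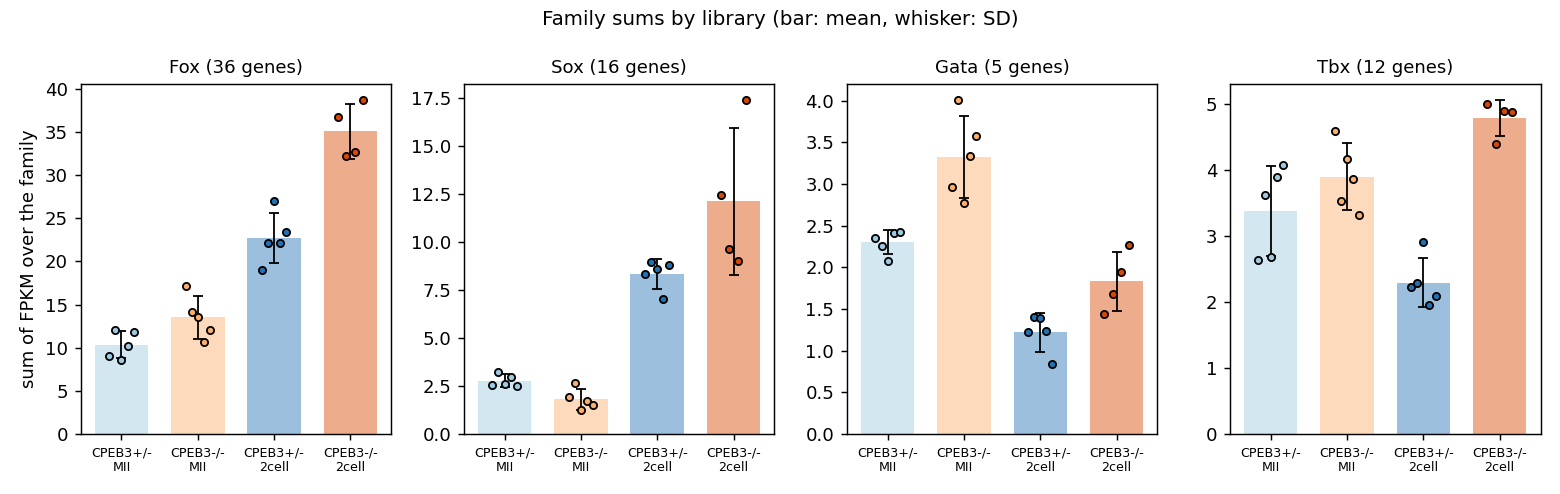
Summed FPKM of the Fox, Sox, Gata and Tbx members in each library (points), with bars at the group mean and whiskers of 1 SD. At the 2cell stage the KO libraries lie above the Het libraries in all 4 families, and at the MII stage the Gata sum alone separates the genotypes.

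Since single values are low, the members of each family were also added up per library. The Fox sum was 9.08, 12, 8.54, 10.2 and 11.8 FPKM in Het MII libraries and 17.1, 14.1, 13.6, 10.6 and 12 FPKM in KO MII libraries, and these overlapped. In 2cell embryos it was 19, 22.1, 27.0, 22.2 and 23.4 FPKM in Het and 36.8, 32.2, 32.7 and 38.7 FPKM in KO libraries. Here the lowest KO library stood above the highest Het library, and the ratio of means was 1.54. The Fox sum was the largest of the 4 in every group, with means of 10.3 ± 1.58, 13.5 ± 2.45, 22.7 ± 2.89 and 35.1 ± 3.16 FPKM (SD, n = 5, 5, 5 and 4).

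The Sox sum was 2.53, 3.24, 2.61, 2.99 and 2.49 FPKM in Het MII and 1.91, 2.65, 1.22, 1.69 and 1.5 FPKM in KO MII libraries. Its ratio of 0.647 was the lowest of the 4 families at this stage, and the groups overlapped through KO library B. At the 2cell stage it was 8.34, 8.94, 8.60, 7.02 and 8.82 FPKM in Het and 12.5, 9.64, 8.99 and 17.4 FPKM in KO libraries, with a ratio of 1.45 and no overlap, although KO library C stood only just above the highest Het value.

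Gata transcripts summed to 2.35, 2.25, 2.08, 2.42 and 2.43 FPKM in Het MII and to 2.96, 4.01, 2.77, 3.34 and 3.57 FPKM in KO MII libraries, a ratio of 1.44 without overlap. In 2cell embryos the sums were 1.22, 1.4, 1.4, 1.23 and 0.834 FPKM in Het and 1.44, 1.67, 1.95 and 2.27 FPKM in KO libraries, a ratio of 1.5 without overlap. Gata was the family that was lower at the 2cell stage than in MII oocytes in both genotypes, with ratios of 0.528 and 0.550. In MII oocytes the sum rested on Gata3, which held 95% of it in Het and 92.1% in KO. In 2cell embryos Gata2 held the largest share, 36.1% in Het and 52.1% in KO.

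For Tbx the Het MII libraries gave 2.63, 3.62, 2.68, 3.89 and 4.07 FPKM and the KO MII libraries 4.6, 3.54, 4.16, 3.87 and 3.32 FPKM, which overlapped. The 2cell values were 2.23, 2.29, 2.90, 1.95 and 2.09 FPKM in Het and 4.99, 4.39, 4.89 and 4.87 FPKM in KO libraries. This ratio of 2.09 was the largest of the 4 families at the 2cell stage, and the groups were far apart compared with their SDs of 0.366 and 0.267 FPKM. Between stages the Tbx sum had a ratio (2cell over MII) of 0.679 in Het and 1.23 in KO, and the KO ratio was 0.825 when libraries were scaled to their sum of FPKM, so its direction depended on scaling. The deposited FPKM summed to 135309 to 159320 in Het and to 113886 to 123318 in KO 2cell libraries, and the ratios under sum scaling were 1.88, 1.78, 1.83 and 2.54 for Fox, Sox, Gata and Tbx. All family sums are descriptions with no p-value.

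A few members made up most of each sum. Foxr1 held 43.4% of the Fox sum in Het 2cell embryos and 26.5% in KO, and Foxo1 held 26.7% in Het MII oocytes. Sox8 held 56.0% of the Sox sum in Het MII oocytes, and Sox15 59.2% in Het 2cell embryos, while in KO 2cell embryos Sox4 (27.5%) and Sox18 (19.8%) were prominent. Tbx4 held 86.7% of the Tbx sum in Het MII oocytes, and Tbx3 (36.6%) and Tbx19 (25.6%) in Het 2cell embryos.

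The first comparison asked how the loss of maternal CPEB3 altered these genes in 2cell embryos. Of the 69 members 37 were tested, and 16 were called at a Benjamini-Hochberg adjusted p under 0.05 and a change above 1.5-fold in limma, 15 higher in the libraries labelled KO and 1 lower. Over all 14051 genes tested, 18.3% were called, 8.41% higher and 9.85% lower. The members' share called was 43.2% and their median log2 fold change 0.83, beside -0.01 over all tested genes. In 19 of 69 members every KO library stood above every Het library, 16 of them among the 37 tested, where 10.4% of all tested genes did so. Of the 37 tested, 8 passed the filter on low values through the KO libraries alone, 4 of them called, and their tests are not independent of that filter. The 27 that passed it in either genotype alone held 11 of the 15 higher calls and the lower one. Scaling each library to its sum of FPKM moved the median of all genes to 0.26 and the calls over all genes to 2423 higher and 573 lower, and 23 members were then higher and 0 lower. All folds were computed from log2(FPKM + 0.1), and this pseudocount makes the printed fold smaller than the ratio of means wherever levels are low.

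**Figure D2:**
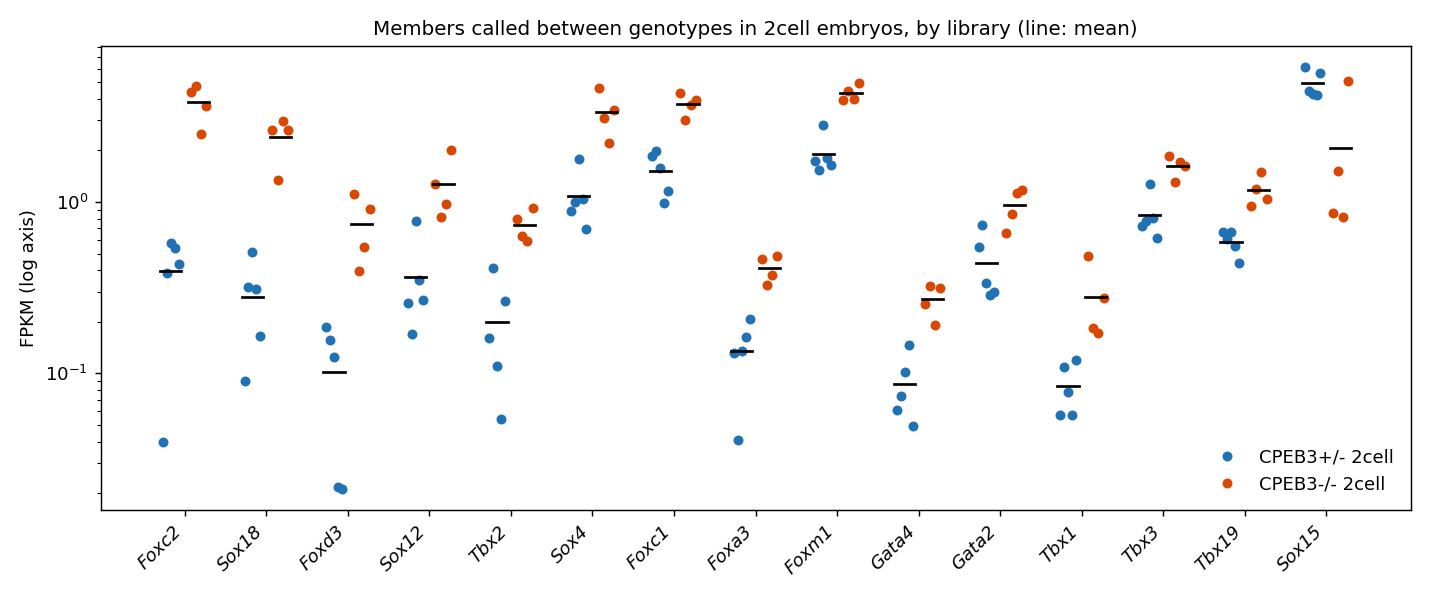
FPKM (log axis) of 15 of the 16 members called in 2cell embryos, in each CPEB3+/- (blue) and CPEB3-/- (orange) library, with a line at the group mean and members ordered by log2 fold change. In 13 of the 14 higher members shown no KO library falls into the Het range, and Sox15 has 1 KO library among the Het values.

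Forkhead genes of early lineages and germ layers were the largest group. Of 17 such members 10 were tested, and 5 were higher in KO and 0 lower, with a median log2 fold change of 1.17 over the tested. Their group means added up to 13.2 FPKM in KO and 3.94 FPKM in Het embryos. The 14 members of the Foxj2, Foxj3, Foxk, Foxn, Foxp and Foxr subfamilies added up to 14.8 FPKM in both, of which Foxr1 alone held 9.86 FPKM in Het and 9.29 FPKM in KO, with 7 tested and 0 called at this stage (1 of the 7, Foxn2, had an adjusted p under the limit and too small a change). Most of the difference in the Fox sum thus lay in lineage genes, with Foxm1 next.

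Foxc2, a factor of mesoderm, vessel and lymphatic development at chr8:121116171-121118895, moved most. Its level was 0.0397, 0.382, 0.574, 0.539 and 0.436 FPKM in Het and 4.36, 4.76, 2.49 and 3.63 FPKM in KO 2cell libraries. The lowest KO library was above the highest Het library by more than the range of the Het libraries. The log2 fold change was 3.09 (SE 0.44, adjusted p = 0.00242 by limma), 8.52-fold on the pseudocount scale. About 23.9 fragments in the median Het library and 206.7 in the median KO library stood behind these values. The call was kept under every alternative and without each library in turn.

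Its paralogue Foxc1, which acts in the same tissues, had 1.84, 1.97, 1.58, 0.980 and 1.16 FPKM in Het and 4.30, 2.99, 3.68 and 3.92 FPKM in KO libraries. The genotypes did not overlap, and the log2 fold change was 1.23 (SE 0.23, adjusted p = 0.00674), 2.34-fold. Foxc1 was the more abundant of the pair in Het embryos, and in KO embryos their means were near each other at 3.72 and 3.81 FPKM. Foxq1, near Foxc1 on chromosome 13 and known from hair and epithelia, had means of 0.0666 and 0.0608 FPKM and did not pass the filter.

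Foxd3, a pluripotency and neural crest factor, gave 0.186, 0.157, 0.125, 0.0218 and 0.0213 FPKM in Het and 1.11, 0.394, 0.548 and 0.914 FPKM in KO libraries. Each KO library exceeded all Het libraries, with a log2 fold change of 2.02 (SE 0.37, adjusted p = 0.00639), with a median of 5.0 fragments in Het and 31.3 in KO libraries. Foxa3, an endoderm and liver factor, was low throughout, at 0.0407 to 0.207 FPKM in Het and 0.326 to 0.485 FPKM in KO libraries. It rose by a log2 fold change of 1.11 (SE 0.24, adjusted p = 0.0116), a call lost with a pseudocount of 1 FPKM. Foxd3 passed the filter through the KO libraries alone.

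Other lineage forkheads had wide ranges. Foxi3, an ectodermal placode factor, was at 1.48, 1.11, 0.623, 0.578 and 0.664 FPKM in Het and 0.997, 0.377, 1.89 and 2.13 FPKM in KO libraries, which overlapped (log2 fold change 0.35, adjusted p = 0.643). Foxe1, a thyroid factor, was at 0.0965, 0.353, 0.269, 0.126 and 0.0882 FPKM in Het and 0.339, 0.231, 1.47 and 1.11 FPKM in KO libraries (1.39, adjusted p = 0.0745). The high values of Foxe1 came from KO libraries C and D. The same held for Foxd4, listed at 0 in every Het 2cell and every MII library and at 0.0225, 0.0230, 0.198 and 0.861 FPKM in KO 2cell libraries, which stayed below the filter and has no test.

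Foxm1, which drives genes of the G2 and M phases, was at 1.74, 1.54, 2.81, 1.81 and 1.65 FPKM in Het and 3.93, 4.45, 4.0 and 4.96 FPKM in KO libraries. All KO libraries lay above all Het libraries, Het library C included, which stood apart from the other 4. The log2 fold change was 1.11 (SE 0.17, adjusted p = 0.0037), 2.16-fold. Of 15 listed partners and targets of FOXM1, 14 were tested, 3 were higher and 2 lower, with a median log2 fold change of 0.01 beside -0.01 for all genes. Mybl2, a partner in the same activator complexes, rose by 1.03, Plk1, a mitotic kinase, by 0.79 and Cdc25b, a phosphatase that activates CDK1, by 1.33 on the log2 scale. Lin9, a subunit of the complex that recruits FOXM1, fell by 1.10, and Ccnb1, the mitotic cyclin, fell by 0.87.

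The most abundant forkhead, Foxr1, a germ-cell and early-embryo forkhead of little known function, had 6.85, 7.92, 12.1, 10.5 and 12 FPKM in Het and 11.7, 8.46, 6.86 and 10.2 FPKM in KO embryos. The values overlapped fully, with a log2 fold change of -0.13 (adjusted p = 0.671), which was 0.22 under sum scaling. Foxo1, the insulin-regulated factor, had means of 1.33 and 1.59 FPKM (0.20, adjusted p = 0.37), and 0 of the 2 Foxo members tested were called. Of 19 listed FOXO regulators 18 were tested and 1 was called, Akt1, the kinase that keeps FOXO proteins out of the nucleus, higher at 0.66 (adjusted p = 0.0273). Foxj3 (means 1.92 and 2.37 FPKM, 0.24, adjusted p = 0.271) and Foxk2 (0.875 and 1.19 FPKM) were expressed in both genotypes and not called.

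Foxn2, a forkhead of little known function in embryos, had 1.52, 1.75, 1.88, 1.89 and 1.71 FPKM in Het and 1.27, 1.30, 1.38 and 1.32 FPKM in KO libraries. Every KO library stood below every Het library, the 1 member of 69 with this order. The log2 fold change was -0.43 (SE 0.12, adjusted p = 0.0285), a 1.35-fold difference that is under the 1.5-fold limit.

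Among Sox genes 8 were tested and 4 called, 3 higher and 1 lower. Sox18, a group F factor of blood and lymph vessel endothelium, was at 0.0899, 0.318, 0.514, 0.309 and 0.164 FPKM in Het and 2.63, 1.34, 2.98 and 2.64 FPKM in KO 2cell libraries. No values overlapped, and the log2 fold change of 2.74 (SE 0.35, adjusted p = 0.00162), 6.66-fold, was kept under every alternative. The other group F members, Sox7 and Sox17, were not tested, and the 3 together added up to 2.53 FPKM in KO and 0.312 FPKM in Het embryos.

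All 3 group C members, known from neural progenitors and mesenchyme, were tested. Sox4 had 0.882, 0.995, 1.79, 1.04 and 0.691 FPKM in Het and 4.59, 3.09, 2.21 and 3.45 FPKM in KO libraries, without overlap (log2 fold change 1.51, SE 0.26, adjusted p = 0.00544, 2.84-fold). Sox12 had 0.257, 0.169, 0.776, 0.35 and 0.267 FPKM in Het and 1.27, 0.815, 0.976 and 2.01 FPKM in KO libraries. The lowest KO value of Sox12 was only just above Het library C, and the log2 fold change was 1.56 (SE 0.35, adjusted p = 0.0134). Sox11 had 0.488, 1.25, 0.328, 0.305 and 0.726 FPKM in Het and 1.66, 1.08, 0.704 and 1.42 FPKM in KO libraries. Het libraries B and E lay within the KO range, and it was not called (0.91, adjusted p = 0.125).

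Sox15, a group G gene related to the pluripotency Sox genes and known from muscle progenitors and trophoblast, was the only member called lower. It was the most abundant Sox gene of Het 2cell embryos, at 6.12, 4.42, 4.26, 4.23 and 5.67 FPKM, and KO libraries had 0.858, 1.52, 0.819 and 5.05 FPKM. KO libraries A to C lay far below the Het range, and KO library D lay inside it. The log2 fold change was -1.65 (SE 0.46, adjusted p = 0.033), 3.14-fold lower. The call was lost without Het libraries A, B, D or E or KO libraries A, B or C, with an adjusted p of up to 0.0891 and log2 fold changes between -2.19 and -1.37, and under sum scaling. Sox15 overlaps Mpdu1 on the other strand, and the kit used does not keep strand, so their reads cannot be told apart. The same limit holds for called-higher members that share bases with an annotated gene, namely Foxm1 (Tex52 and Gm44596), Foxd3 (Gm23366), Sox4 (Gm26735) and Tbx3 (Tbx3os1). Sox8, a group E gene of gonad and neural crest, had 0.101, 0.791, 0.537, 0.243 and 0.267 FPKM in Het and 0.697, 0.687, 0.601 and 1.09 FPKM in KO libraries and was not called (0.95, adjusted p = 0.122).

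Of the Gata genes 4 were tested and 2 called, both higher. Gata4, an endoderm and heart factor, was at 0.0612, 0.0734, 0.102, 0.147 and 0.0494 FPKM in Het and 0.253, 0.325, 0.191 and 0.314 FPKM in KO libraries. The genotypes did not overlap, and the log2 fold change was 0.97 (SE 0.21, adjusted p = 0.0119), but Gata4 passed the filter through the KO libraries alone, and the call was lost with a pseudocount of 1 FPKM, above 2-fold and with the GC trend removed. Gata2, of blood progenitors and trophoblast, had 0.545, 0.732, 0.337, 0.285 and 0.30 FPKM in Het and 0.656, 0.847, 1.13 and 1.18 FPKM in KO libraries. These overlapped at KO library A, and the log2 fold change of 0.95 (SE 0.29, adjusted p = 0.0466) was lost without Het libraries C, D or E or KO libraries B, C or D, with an adjusted p of up to 0.114. Gata1, the erythroid factor, had 0.232, 0.184, 0.765, 0.636 and 0.270 FPKM in Het and 0.274, 0.175, 0.234 and 0.457 FPKM in KO libraries (-0.37, adjusted p = 0.51). Gata3, of T cells and trophoblast, had means of 0.247 and 0.253 FPKM (0.03, adjusted p = 0.949).

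T-box genes had 5 members tested and 4 called, all higher, and all 4 calls (Tbx1, Tbx2, Tbx3 and Tbx19) were lost with a pseudocount of 1 FPKM. Tbx3, a factor of limb, mammary gland and pluripotent cells, had 0.727, 0.777, 1.27, 0.808 and 0.615 FPKM in Het and 1.84, 1.31, 1.71 and 1.62 FPKM in KO 2cell libraries. Its genotypes did not overlap (log2 fold change 0.85, SE 0.19, adjusted p = 0.0144, 1.80-fold). Tbx2, its close relative, was at 0.161, 0.410, 0.111, 0.0539 and 0.263 FPKM in Het and 0.797, 0.631, 0.592 and 0.926 FPKM in KO libraries. The values stood apart again, with a log2 fold change of 1.54 (SE 0.34, adjusted p = 0.0128). Tbx4, a hindlimb gene just downstream of Tbx2 (chr11:85832551-85841948 for Tbx2 and chr11:85886422-85916097 for Tbx4), had 0.553, 0.247, 0.667, 0.437 and 0.505 FPKM in Het and 0.727, 0.917, 0.583 and 0.798 FPKM in KO libraries. It overlapped and was not called (0.54, adjusted p = 0.143).

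Tbx19, a pituitary factor, had 0.665, 0.611, 0.664, 0.550 and 0.441 FPKM in Het and 0.946, 1.19, 1.49 and 1.04 FPKM in KO libraries. The genotypes were apart, at a log2 fold change of 0.83 (SE 0.19, adjusted p = 0.015). Tbx1, of the pharyngeal arches, had 0.0570, 0.109, 0.0774, 0.0575 and 0.120 FPKM in Het and 0.486, 0.183, 0.172 and 0.274 FPKM in KO libraries, without overlap. Its log2 fold change of 0.95 (SE 0.25, adjusted p = 0.0249) was lost without Het library D, KO library A or KO library D, with an adjusted p of up to 0.0656, and Tbx1 too passed the filter through the KO libraries alone. The 3 listed T-box genes in the table that the rule does not take had 2 tested and 0 called. The other 13 of the 16 calls, all but those of Gata2, Sox15 and Tbx1, were kept without each of the 9 libraries in turn.

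**Figure D3:**
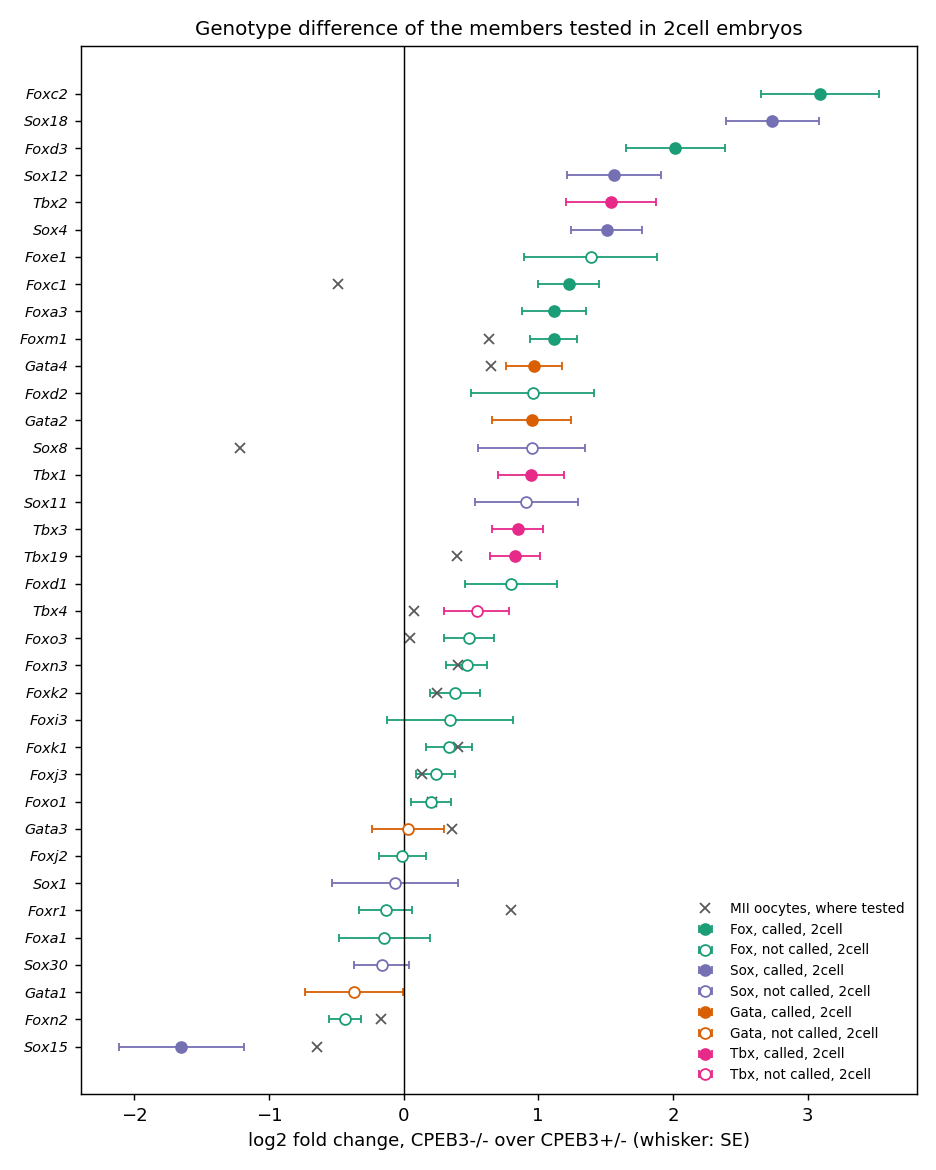
Log2 fold change of CPEB3-/- over CPEB3+/- in 2cell embryos for 36 of the 37 members tested there (circles coloured by family, filled where called, whisker SE), with crosses for the MII value where it was also tested. Values lie to the right of 0 in 28 of the 36, Sox15 is the one filled circle to the left, and Sox8, Foxc1 and Foxr1 have their crosses on the other side of 0.

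In MII oocytes, before the embryonic genome is active, 17 members were tested and 52 were not. Of the 17, 4 were called, 3 higher and 1 lower in KO. Over all 10515 genes tested 12.9% were called, 5.59% higher and 7.29% lower, so the members' 23.5% rests on very few genes. Under sum scaling the calls over all genes were 1111 higher and 478 lower beside 588 and 767, and those of the members stayed 3 and 1. The median log2 fold change of the members was 0.23 beside 0.01 for all genes, and 2 of the 17 had every KO library above every Het library (Gata3 and Foxj3), where 8.71% of tested genes did. Of the tested members, 15 passed the filter in either genotype alone.

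Sox8 was the call least dependent on single libraries. It had 1.29, 1.86, 1.22, 1.87 and 1.51 FPKM in Het and 0.952, 0.956, 0.341, 0.604 and 0.567 FPKM in KO MII libraries. No KO library reached the lowest Het library, and Sox8 fell by 1.21 on the log2 scale (SE 0.23, adjusted p = 0.00581), 2.32-fold lower. The call was kept without each of the 10 libraries and under all 10 alternatives. An antisense gene, 2810468N07Rik, overlaps Sox8 and could share reads with it.

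Foxr1 had 1.04, 2.06, 1.08, 1.49 and 2.02 FPKM in Het and 4.26, 2.79, 3.46, 1.96 and 2.27 FPKM in KO MII libraries, which touched at KO library D. The log2 fold change was 0.80 (SE 0.21, adjusted p = 0.0249), and the call was lost without Het libraries A, C or D or KO library C (adjusted p up to 0.0644). Foxm1 had 0.375, 0.586, 0.394, 0.552 and 0.748 FPKM in Het and 1.21, 0.942, 0.951, 0.699 and 0.834 FPKM in KO libraries. These overlapped through Het library E, the log2 fold change was 0.63 (SE 0.16, adjusted p = 0.019), and without Het library A or C or KO library A the call was lost because the change came under 1.5-fold (log2 fold change down to 0.55). Gata4 had 0.0406, 0.0940, 0.0378, 0.0628 and 0.105 FPKM in Het and 0.280, 0.207, 0.157, 0.0797 and 0.157 FPKM in KO libraries (0.65, SE 0.19, adjusted p = 0.0357). It was called in only 3 of the 10 fits that leave out 1 library, with a limma adjusted p of up to 0.0918. It was lost without Het A, C or D and without KO A, B, C or E. The MII calls of Foxr1, Foxm1 and Gata4 were all lost with a pseudocount of 1 FPKM, above 2-fold and with the library letter as a block. Those of Foxr1 and Gata4 were also lost with no filter.

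Several members with clear MII expression were not called. Gata3 had 2.24, 2.12, 2.00, 2.32 and 2.27 FPKM in Het and 2.61, 3.68, 2.52, 3.21 and 3.31 FPKM in KO libraries, which did not overlap, at a log2 fold change of 0.36 (SE 0.13, adjusted p = 0.0683). Tbx4 had 2.31, 3.09, 2.26, 3.39 and 3.58 FPKM in Het and 3.69, 2.96, 3.58, 3.45 and 2.71 FPKM in KO libraries, which overlapped (0.08, adjusted p = 0.669). Foxo1 had means of 2.76 and 3.46 FPKM (0.21, adjusted p = 0.274). Foxc1, with means of 0.831 ± 0.133 and 0.629 ± 0.250 FPKM (SD, n = 5 each), had a log2 fold change of -0.49 (adjusted p = 0.0795), and Sox15, with means of 1.06 and 0.735 FPKM, one of -0.65 (adjusted p = 0.0911). Both lie on the opposite side of 0 from most members.

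The stage comparisons describe the maternal-to-embryonic change within each genotype. In Het 28 of 40 tested members were called, 23 of them with more and 5 with less transcript in 2cell embryos, where 66.6% of 15786 genes were called (38.0% higher, 28.5% lower). In KO 31 of 40 were called, 27 higher and 4 lower, where 65.1% of genes were (38.2% higher, 27.0% lower). The share called is close to that of all genes. In 19 of the 23 higher calls in Het and 17 of the 27 in KO every MII library of that genotype was under the 0.1 FPKM filter, so these members entered mainly through the 2cell libraries, where they are high, and the upward majority and the medians of 0.87 and 1.41 are no evidence of direction. The 20 tested members with an MII library at the filter or above in Het had 4 higher and 5 lower calls and a median of -0.08, and the 23 such members in KO had 10 and 4 and a median of 0.36, beside 0.20 and 0.21 for all genes. In 7 of the 23 and in 6 of the 27 higher calls all MII libraries of that genotype were listed at 0, and no fold is given for them. Under sum scaling 22 members were higher and 8 lower in Het and 24 and 7 in KO, where the calls over all genes turned from 6006 higher and 4502 lower to 4976 and 5931 in Het and from 6026 and 4258 to 5315 and 5572 in KO. Among the genes at 0 were Foxd2, Foxe1, Foxi3, Sox18, Tbx1 and Tbx2 in Het and Foxd2, Foxd3, Foxi3, Tbx1 and Tbx2 in KO.

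Of the genes with some MII signal, Sox4 had the largest rise on the log2(FPKM + 0.1) scale, where the pseudocount sets the size for genes near 0 such as Sox4 (at 0 in 3 of 5 Het and 4 of 5 KO MII libraries). It went from means of 0.00632 to 1.08 FPKM in Het (log2 fold change 3.32, adjusted p = 5e-11) and from 0.00914 to 3.34 FPKM in KO (4.83, adjusted p = 6.68e-13). Sox11 rose by 2.59 in Het and 3.42 in KO, Gata2 by 2.23 and 2.79, Tbx3 by 2.07 and 3.04, and Foxc2 by 2.00 and 4.65. Foxr1 rose by 2.39 (adjusted p = 8.31e-09) and 1.5 (adjusted p = 8.79e-06), Gata1 by 2.01 and 1.57, and Foxm1 by 1.46 and 1.97. Foxr1, Gata1, Sox1, Sox15, Sox30 and Foxa1 had a smaller value in KO than in Het, and 0 of these 6 were called in the interaction (adjusted p from 0.0843 for Foxr1). Sox15 rose by 1.88 in Het and 0.93 in KO.

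Among the 8 members with a mean of at least 1 FPKM in Het MII oocytes, Gata3, Tbx4, Foxo1 and Sox8 fell. Gata3 fell by 2.99 on the log2 scale in Het (adjusted p = 5.08e-11) and by 3.28 in KO (adjusted p = 3.8e-11). Tbx4 fell by 2.63 (adjusted p = 1.34e-10) and 2.12 (adjusted p = 7.25e-09), and Foxo1 fell by 1.24 and 1.20. Foxq1, the remaining faller, fell by 0.68 and 1.06 from MII means of 0.137 and 0.191 FPKM. Sox8 fell by 2.14 in Het (adjusted p = 6.99e-06) and had a log2 fold change of 0.06 in KO. Neighbours on chromosome 11 went apart here, Tbx2 being listed at 0 in all 10 MII libraries while Tbx4 was the most abundant T-box gene there.

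**Figure D4:**
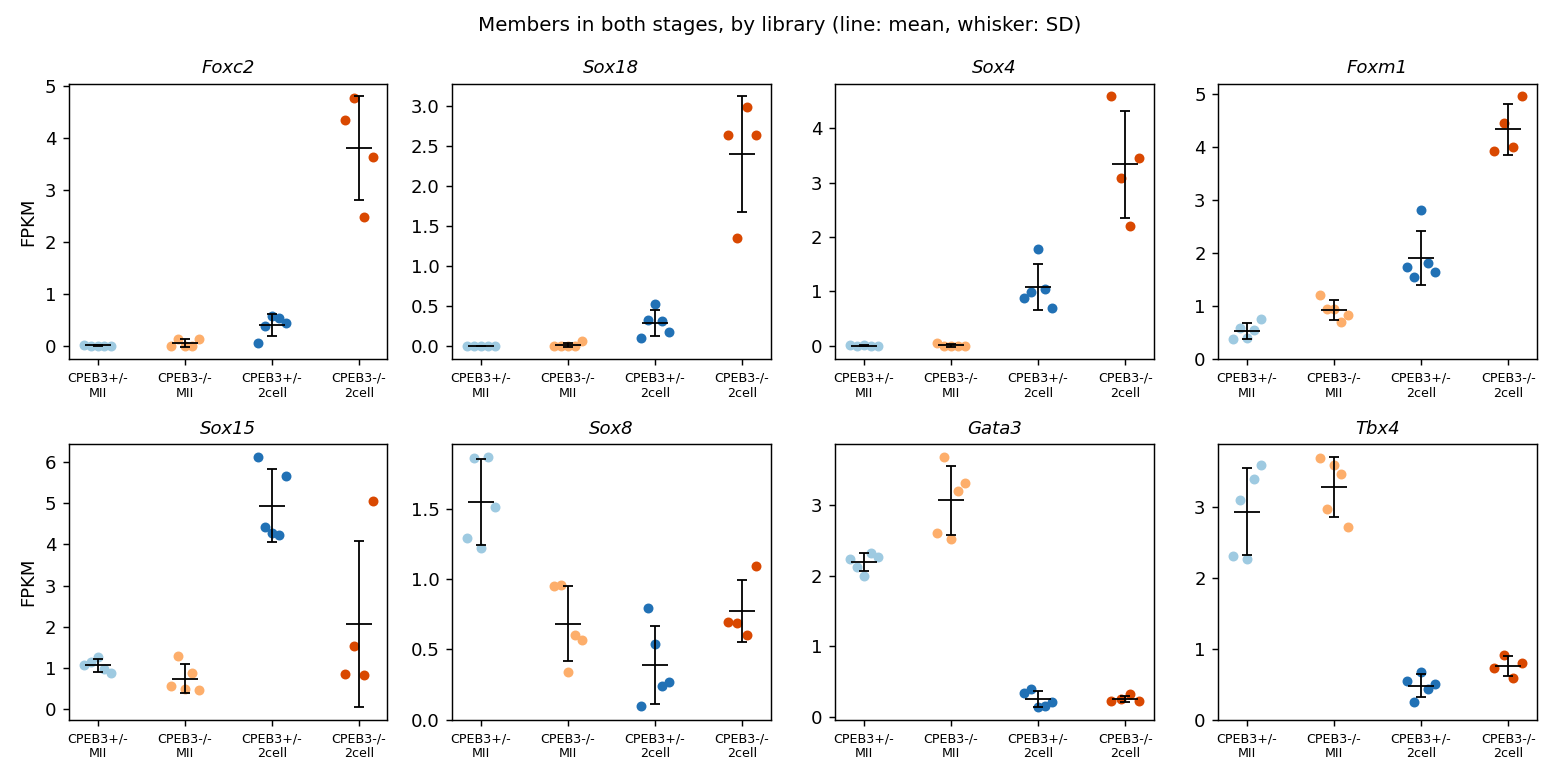
FPKM of 8 members in each library of the 4 groups (points), with the mean as a line and the SD as a whisker. Foxc2, Sox18 and Sox4 are near 0 in MII oocytes and highest in CPEB3-/- 2cell embryos, Sox15 peaks in CPEB3+/- 2cell embryos, and Gata3 and Tbx4 are highest in MII oocytes.

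Whether the genotype difference itself differed between stages was tested as an interaction over all 19 libraries. Of 40 members tested 10 were called, all with a larger KO-over-Het difference in 2cell embryos, where 7.64% of genes were called and 3.71% in this direction. The members' median was 0.51 beside 0.04 for all genes. Sum scaling turned the calls over all genes from 586 higher and 620 lower to 802 and 416, and left those of the members at 10 and 0. Foxc2 had the largest value, 2.65 (SE 0.53, adjusted p = 0.00543), followed by Sox18 at 2.59 (SE 0.37, adjusted p = 0.000407) and Sox8 at 2.20 (SE 0.46, adjusted p = 0.00731). Foxd3 (2.06), Foxc1 (1.76), Tbx2 (1.53), Sox4 (1.51), Foxa3 (1.09) and Tbx1 (0.93) were also called. For Sox8 (-1.21 in MII oocytes and 0.95 in 2cell embryos) and Foxc1 (-0.49 and 1.23) the genotype estimates had opposite signs at the 2 stages. Tbx1 and Tbx2 were listed at 0 in all 10 MII libraries, Sox18 and Foxd3 in 9, Foxc2 and Sox4 in 7 and Foxa3 in 6, so for these the interaction largely restates the 2cell difference. Foxm1 was called at both stages and had an interaction of 0.52 (adjusted p = 0.185). The genotype, stage and interaction comparisons share libraries and are not independent of each other.

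Members were GC-rich and often without introns. Their longest transcripts had a median GC content of 55.1% beside 49.4% for protein-coding genes, and 14 of 69 (20.3%) had no intron beside 3.86%. The 15 members higher in KO 2cell embryos had a median of 58.2% GC and the 21 tested and not called 54.2%. Over all tested genes those higher in KO had 53.8% and those lower 44.3%, so GC content moved with the genotype difference across the whole table.

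**Figure D5:**
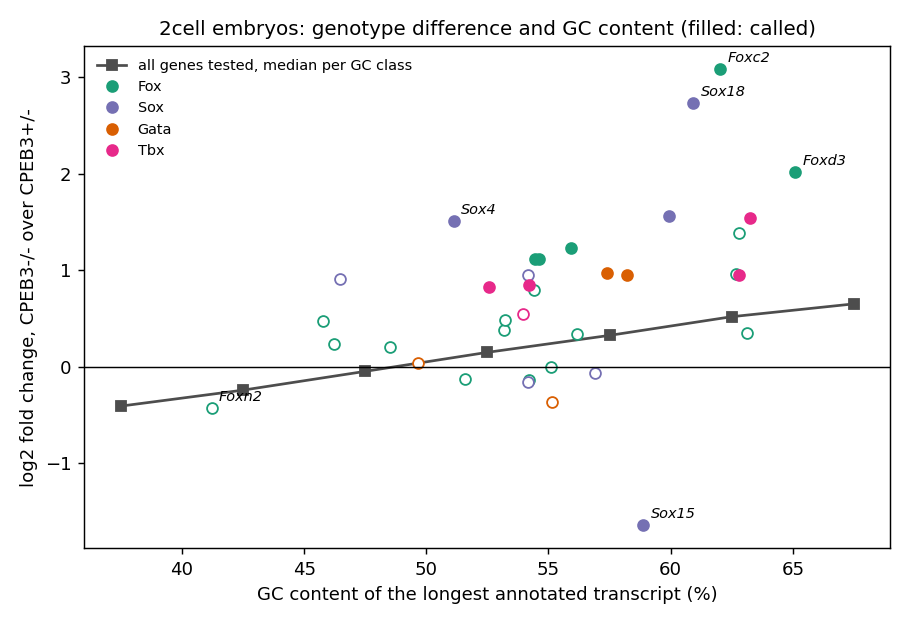
Log2 fold change of CPEB3-/- over CPEB3+/- in 2cell embryos against the GC percent of the longest transcript, for 36 of the 37 tested members (circles, filled where called) and as the median of all tested genes in each GC class (squares). The median of all genes goes from -0.41 under 40% GC to 0.65 above 65%, and all called members shown but Sox15 lie above it.

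In the 40 to 45% bin the 1 member, Foxn2, had -0.43 beside a median of -0.25 for all genes, and in the 45 to 50% bin the 5 members had a median of 0.24 and 0 higher beside -0.05 and 5.35%. In the 50 to 55% bin the median over all genes was 0.15 and 11.4% were called higher, while the 13 members there had a median of 0.80 and 5 higher. In the 55 to 60% bin the values were 0.32 and 18.2%, and 0.65 with 5 of 10 for the members. In the 60 to 65% bin they were 0.52 and 26.5%, and 1.39 with 4 of 7. The single member above 65%, Foxd3, had 2.02 beside 0.65. With the GC trend removed from the fit 12 members were called in 2cell embryos, 11 higher and 1 lower, and Gata2, Gata4 (adjusted p = 0.0645), Tbx1 (adjusted p = 0.249) and Tbx2 (adjusted p = 0.0702) were no longer called. In MII oocytes the calls then were 1 higher and 2 lower, with Foxm1 and Gata4 lost and Foxc1 added as lower, so the split of directions there depended on this step. The part of GC content in the genotype differences was not tested.

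Genes around these families were read from lists. Of 37 listed paired-box and bHLH developmental genes, which like many members act later in development, 26 were in the table, 11 were tested in 2cell embryos and 6 were higher and 0 lower in KO, where 8.41% of all tested genes were higher, with a median log2 fold change of 1.19. Atoh1, a hair-cell and cerebellar bHLH factor, rose by 2.60 and Ptf1a, of pancreas and cerebellum, by 2.28, but both had Het means of only 0.0819 and 0.104 FPKM and passed the filter through the KO libraries alone. Neurog2, a neurogenic factor, rose by 1.19, Ascl2, of trophoblast and intestinal stem cells, by 1.27, and Olig1 and Tcf15 by 1.44 and 0.92. In MII oocytes 2 of them were tested and 0 called. Partners of the 4 families were listed as well. Of 3 GATA partners tested 1, Lmo4, a LIM-only adaptor, was higher in 2cell embryos (1.12) and in MII oocytes (1.18). Of 4 FOXH1 and Nodal genes 1 was higher, Smad4 (0.63), and of 8 SOX partners and co-repressors and 4 other GATA-type zinc-finger genes 0 were called. In MII oocytes these 3 lists and the 17 FOXO regulators tested had 0 calls, and the FOXM1 list had Cdc25b higher by 1.06 and Ccnb1 lower, a log2 fold change of -1.0.

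As a description over all 19 libraries, which share the stage difference, the members most like the leading gene of each family in log2(FPKM + 0.1) were found by Pearson's r. Foxr1 was followed by Sox30 (0.908), Tbx3 (0.900) and Foxm1 (0.898). Sox15 was followed by Gata1 (0.743), Sox1 (0.737) and Foxi3 (0.692). Gata3 had Tbx4 (0.925), Foxo1 (0.892) and Sox5 (0.831). Tbx4 had Gata3 (0.925), Foxo1 (0.921) and Sox5 (0.818), so the leading Gata and Tbx genes were each other's nearest member. Sox5 had group means of at most 0.00303 FPKM, so its values barely varied on this scale and its r describes a gene near 0.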

How the data were processed

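MII oocytes and 2cell embryos were sequenced with a SMART-seq v4 kit, which does not keep strand. According to the sources, the authors trimmed reads with Trim Galore 0.4.1, mapped them to GRCm38 with HISAT2 2.0.5 and quantified genes with SeqMonk. Although its name speaks of raw counts, the table the authors deposited was read as FPKM, since its values are not whole. At the depth that made this share largest, 39.4% of low values (median of libraries) fell within 0.05 of a whole fragment. Because the depth was chosen for this share, no chance level is given for it. Groups were taken from the library titles, and genes were matched to GENCODE vM21 (25640 of 25891 genes, and all 69 members).

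Libraries were scaled by a trimmed mean of log ratios (30% of ratios and 5% of levels trimmed). log2(FPKM + 0.1) was fitted with limma 3.58.1 (R 4.3.3) with a variance trend, within each stage for genotype (0.1 FPKM or more in 5 libraries for MII and in 4 for 2cell) and over all 19 libraries as 4 group means for stage and interaction (at least 0.1 FPKM in 4). All p-values are limma's, adjusted over all tested genes by Benjamini-Hochberg. 1 member that was called is counted but not reported here by its values. Members below the filter are described without a test, and values under 1e-06 were read as 0. Named are members with a group mean of at least 1 FPKM, those called in a genotype comparison or the interaction, the 8 largest rises and falls per stage comparison, and the most abundant uncalled member of each family. The members and gene lists were chosen with earlier results of these data known. Alternatives changed scaling, pseudocount, filter, fold limit, GC trend, libraries and blocking. Depth limits members under 0.1 FPKM, and depth estimates cover counting error only. Summaries were made with pandas 2.3.3, numpy 2.4.6 and scipy 1.17.1 under Python 3.11.15, and figures with matplotlib 3.10.9.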

Additional observations from a re-analysis of the deposited data

Results flagged for a closer look

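In 2 of the 96 groups of libraries examined 1 library stood apart from the rest by Dixon's criterion, where 1 in 20 groups (4.8) would by chance. Foxm1 was at 2.81 FPKM in Het 2cell replicate C, beside 1.54 to 1.81 FPKM in the other 4. Sox15 was at 5.05 FPKM in KO 2cell replicate D, beside 0.819 to 1.52 FPKM in the other 3, and so alone brought the KO values into the Het range.

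For 10 members, 9 of them given here, the KO-over-Het difference was larger in 2cell embryos than in MII oocytes by limma's interaction term. The log2 differences were 2.65 for Foxc2 (adjusted p = 0.00543), 2.59 for Sox18 (adjusted p = 0.000407), 2.20 for Sox8 (adjusted p = 0.00731) and 2.06 for Foxd3 (adjusted p = 0.00223). They were 1.76 for Foxc1 (adjusted p = 0.00112), 1.53 for Tbx2 (adjusted p = 0.00876), 1.51 for Sox4 (adjusted p = 0.00511), 1.09 for Foxa3 (adjusted p = 0.0115) and 0.932 for Tbx1 (adjusted p = 0.0251). In MII oocytes Tbx1 and Tbx2 were listed at 0 in all 10 libraries, Sox18 and Foxd3 in 9, Foxc2 and Sox4 in 7 and Foxa3 in 6, so their values largely restate the 2cell difference, and Sox8 and Foxc1 alone of the 9 had MII levels above 0 in every library. Why these differed between stages was not tested.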

How the results depend on the processing

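Of 16 members called in 2cell embryos, 9 were called with a pseudocount of 1 (Foxa3, Gata2, Gata4, Tbx1, Tbx2, Tbx3 and Tbx19 were lost). With a filter at 1 FPKM 7 of the 16 remained, above 2-fold 11, without the GC trend 12, and with values as deposited 16. Other settings also added members. No filter gave 14 calls, 13 of them shared, with Gata2, Sox15 and Tbx1 lost and Foxo6 gained. No fold limit gave 17, with Foxn2 gained. Sum scaling gave 23, of which 15 were shared, with Sox15 lost. All 19 libraries in 1 fit gave 22, the 16 included. Of 4 called in MII oocytes, 1 was called with a pseudocount of 1, 2 with no filter, 2 with a filter at 1 FPKM and 1 above 2-fold. Of 28, 31 and 10 called for stage in Het, stage in KO and the interaction, 11 and 18 remained in number for the stages with a pseudocount of 1, and 13, 14 and 5 with a filter at 1 FPKM. The higher filter left 14 members tested in 2cell embryos and 7 in MII oocytes, and the larger pseudocount shrinks the change of low genes by its construction. Without 1 library at a time the counts were 13 to 18 in 2cell embryos, 1 to 4 in MII oocytes, 27 to 29 and 30 to 32 for the stages and 10 to 12 for the interaction.

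Library letters were not treated as pairing, since same-letter libraries deviated together with r of -0.175 to 0.12 in MII oocytes (1 of 5 over 0.1) and -0.0688 to 0.0368 in 2cell embryos (0 of 4). With a replicate block 2 members, Foxc2 (adjusted p = 0.0415) and Sox18 (adjusted p = 0.0402), were called in 2cell embryos, 1, Sox8, in MII oocytes, 28 and 30 for the stages and 9 for the interaction. Estimates not called that changed sign were Foxn2 (0.039) and Tbx4 (-0.0886) in MII oocytes and Foxi3 (-0.18) in 2cell embryos with the GC trend removed, and Foxr1 (0.22) in 2cell embryos with sum scaling; the cause was not tested. Sum scaling moved the median log2 difference over all genes from 0.01 to 0.15 in MII oocytes, from 0.20 to -0.17 and 0.21 to -0.07 for the stages and from 0.04 to 0.12 for the interaction, and values as deposited gave 0.36 and 0.32 for the stages. Family sums kept their direction between genotypes under each alternative scaling. Members at a few fragments per library, such as Foxd3 in Het embryos, are limited by depth.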
